A study of Mus musculus with 8 samples.

Results

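The regions described here are the wide peaks of RNA polymerase II (Pol2) in mouse skeletal muscle, chosen by a single rule, a called width of 1000 bases or more on chromosomes 1 to 19 and X. The rule took 446 of 20186 Pol2 peaks (2.21%). They came from chromatin immunoprecipitation with sequencing of nuclei from skeletal muscle of wild-type (WT) C57/Bl6J mice, whose age is given as 10 to 12 weeks in the sample labels and as 10 weeks in the series text. The study made 8 libraries, 1 for each of 6 antibodies (Pol2, the glucocorticoid receptor GR, the histone marks H3K4me1, H3K4me3 and H3K27ac, and the architectural protein CTCF) and 2 inputs, Input2 for CTCF and H3K4me3 and Input1 for the rest. All libraries share genotype and tissue, and no treatment is named in the labels, so there is no contrast between conditions. Each antibody has 1 library, and pooling of animals and read depth are not stated in the sources used here. The tests count peaks or genes inside single libraries and measure no variation between animals.

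Pol2 transcribes all protein-coding genes and many noncoding ones. It initiates at the promoter, often pauses shortly after the start, elongates through the gene body and runs on past the 3′ end of the mature RNA before it leaves the template. Immunoprecipitation shows where the enzyme sits and not whether it moves. Muscle fibres devote much of their transcription to contractile proteins, calcium handling and energy supply.

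Promoter sequence was compared because it was not used by the width rule, although the extent of a peak can bear on which start is read, as described below. The promoters of the genes with the most bases under wide peaks (Ttn, Mylk4, Myh4 and Tpm1) are shown first, and those of Trim63, Gadd45g and Srsf2 are shown because they hold the TATA box letters TATAAA ahead of a start that lies under a wide peak. Each runs from 60 bases upstream to 10 bases from the RefSeq start on, in build GRCm38, 5′ to 3′ on the strand of the gene, with TATAAA in capitals.
Ttn (titin, the spring of the sarcomere), chr2:76982538-76982607, minus strand: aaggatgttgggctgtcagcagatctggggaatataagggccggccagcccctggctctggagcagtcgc
Mylk4 (a myosin light chain kinase family member), chr13:32783955-32784024, minus strand: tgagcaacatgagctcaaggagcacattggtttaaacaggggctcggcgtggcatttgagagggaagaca
Myh4 (the fast myosin heavy chain IIb), chr11:67237752-67237821, plus strand: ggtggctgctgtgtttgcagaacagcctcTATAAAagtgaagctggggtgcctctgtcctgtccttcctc
Tpm1 (tropomyosin, on the thin filament), chr9:67049204-67049273, minus strand: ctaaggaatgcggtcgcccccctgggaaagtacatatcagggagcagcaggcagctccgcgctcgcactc
Trim63 (the ubiquitin ligase MuRF1), chr4:134315060-134315129, plus strand: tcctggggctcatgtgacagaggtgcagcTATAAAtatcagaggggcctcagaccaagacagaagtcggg
Gadd45g (a stress-response protein), chr13:51846615-51846684, plus strand: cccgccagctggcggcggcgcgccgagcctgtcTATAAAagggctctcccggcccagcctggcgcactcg
Srsf2 (a splicing factor), chr11:116853085-116853154, minus strand: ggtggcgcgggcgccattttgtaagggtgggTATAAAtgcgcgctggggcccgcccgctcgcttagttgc
TATAAA began 31 bases upstream of the start in Myh4 and Trim63, 27 in Gadd45g and 29 in Srsf2. The start of Mylk4 lay under a Pol2 peak of 755 bases, although another annotated start of Mylk4 lay under a wide peak and the gene is counted so below. The other starts shown lay under wide peaks, from 1059 bases at Srsf2 to 27831 bases at Myh4.

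Genes with a wide Pol2 peak over the start carried TATAAA more often, and had fewer CpG dinucleotides there, than genes with only a narrower peak over the start. In a gene with several GENCODE starts under the peak, the start nearest to the peak midpoint was read. Which start was read can thus depend on the extent of the peak. In GENCODE annotation TATAAA, searched on the sense strand and beginning 20 to 40 bases upstream of the start, was present in 8 of 195 genes with a wide peak over the start (4.10%, exact 95% interval 1.79 to 7.92%). It was present in 79 of 8384 genes with a narrower peak (0.942%, 0.747 to 1.17%), which gives an odds ratio of 4.50 (1.85 to 9.48, exact p = 0.000777 in a two-sided Fisher test). Of all 21755 protein-coding 5′ ends, 530 (2.44%) held these letters. The 8 genes were Nmrk2, Gadd45g, Fbxo32, Trim63, Tsc22d3, Slc25a4, Acta1 and Srsf2, named after their values were seen. They include skeletal alpha-actin (Acta1), the ubiquitin ligases Fbxo32 and Trim63 and the glucocorticoid-induced Tsc22d3 (GILZ). Starts in GENCODE and RefSeq can differ by some bases, and Myh4 is not among the 8. Of the 8, only Trim63, Gadd45g and Srsf2 held TATAAA in the same window before a RefSeq start in the promoter table. At those starts TATAAA began 7 bases upstream in Acta1 and 46 in Nmrk2, it was not in the 70 bases at Slc25a4 or at any of 3 Tsc22d3 starts, and Fbxo32 was not compared. With the most 5′ RefSeq start under a Pol2 peak, the counts were 5 of 146 and 76 of 6140 genes (odds ratio 2.83, exact p = 0.0395). The match of letters is a description and does not show a bound factor.

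CpG islands lie at most widely expressed promoters. The ratio of observed to expected CpG was taken in the 200 bases around the start, picked as for TATAAA. Its median was 0.761 (quartiles 0.460 and 0.952) in the 195 genes with a wide peak and 0.889 (0.745 and 1.01) in the 8384 others. The difference of -0.128 gave p = 1.00e-05 in a two-sided permutation test, the smallest that 100000 permutations can give. The lower quartile thus differed more than the upper one. Over whole peaks the median GC content was 54.1% in wide and 61.2% in narrower Pol2 peaks.

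Wide peaks were a small share of the list and a larger share of its length. Their median width was 1467 bases (quartiles 1174 and 2172), against 212 bases for all Pol2 peaks, and 216 of them reached 1500 bases, 130 reached 2000, 20 reached 5000 and 10 reached 10000. Together they covered 970 kb, 15.7% of the 6157 kb under all Pol2 peaks. These widths chose the members and carry no test. The peaks just below the limit lay at Ttn (992 bases), Pygm (996) and Clec2d (1 base under the limit), and those just inside it at Fbxo32 (1000), Gabarap (1002) and Slc25a3 (1003). The widths ran without a break across the limit. A width also depends on where the peak caller split the signal: 379 wide peaks (85.0%) had another Pol2 peak within 500 bases, as did 51.4% of narrower ones, and the smallest gap in the list was 51 bases. When peaks up to 500 bases apart were stitched, 1246 were wide.

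**Figure D1:**
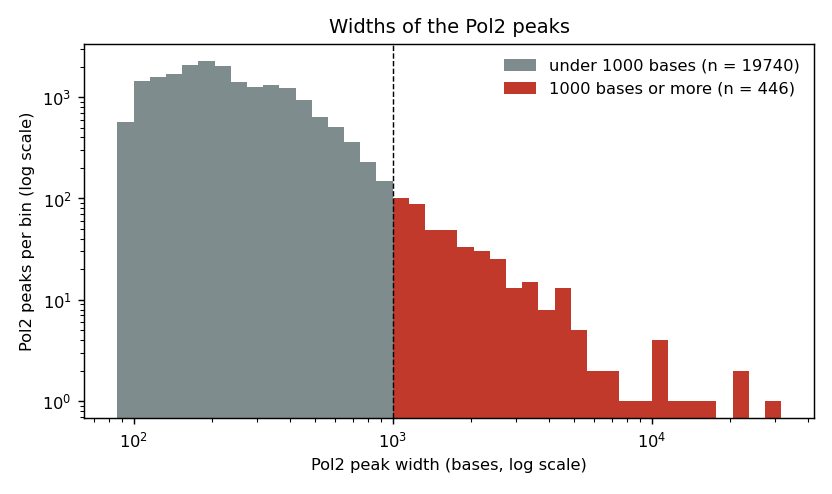
Number of Pol2 peaks (y axis, log scale) by width in bases (x axis, log scale, equal bins on that scale), in grey below and in red at or above the limit of 1000 bases (dashed line). The 446 wide peaks form the thin tail of 20186 peaks, which reaches 27831 bases without a gap at the limit.

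The widest blocks lay over genes of fast muscle fibres and over noncoding genes. The widest, of 27831 bases (chr11:67235457-67263287), covered the whole of Myh4, from 2572 bases before its annotated start to 2841 bases past its 3′ end. Next came a peak of 23455 bases over Atp2a1, which encodes the calcium pump SERCA1 of fast fibres (chr7:126442731-126466185). A peak of 23124 bases (chr2:180385492-180408615) lay over Mir1a-1hg, from which the muscle microRNAs Mir1a-1 and Mir133a-2 are cut. Nctc1, a noncoding gene, lay under a peak of 16240 bases. The calcium buffer Pvalb lay under 14320 bases, and the paraspeckle RNA Neat1 under 11705 and 10220 bases in adjoining peaks.

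The next blocks lay over the following genes. Ckm, the muscle creatine kinase, had a peak of 11376 bases, and Tnnt3, the fast troponin T, had peaks of 11249 and 8479 bases. Pdk4, the kinase that shuts off pyruvate dehydrogenase, had a peak of 10692 bases, and Aldoa, the glycolytic aldolase, had 9345 bases. Tnni2, the fast troponin I, followed with 7247 bases, Txnip, a regulator of glucose uptake, with 6609, and Trim63 with 6465. Chromatin reads carry no strand, so a block over overlapping genes cannot be assigned: the Atp2a1 block also covered part of Rabep2, the Tnni2 block part of Syt8, and the Aldoa block parts of Fam57b and Ppp4c.

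**Figure D2:**
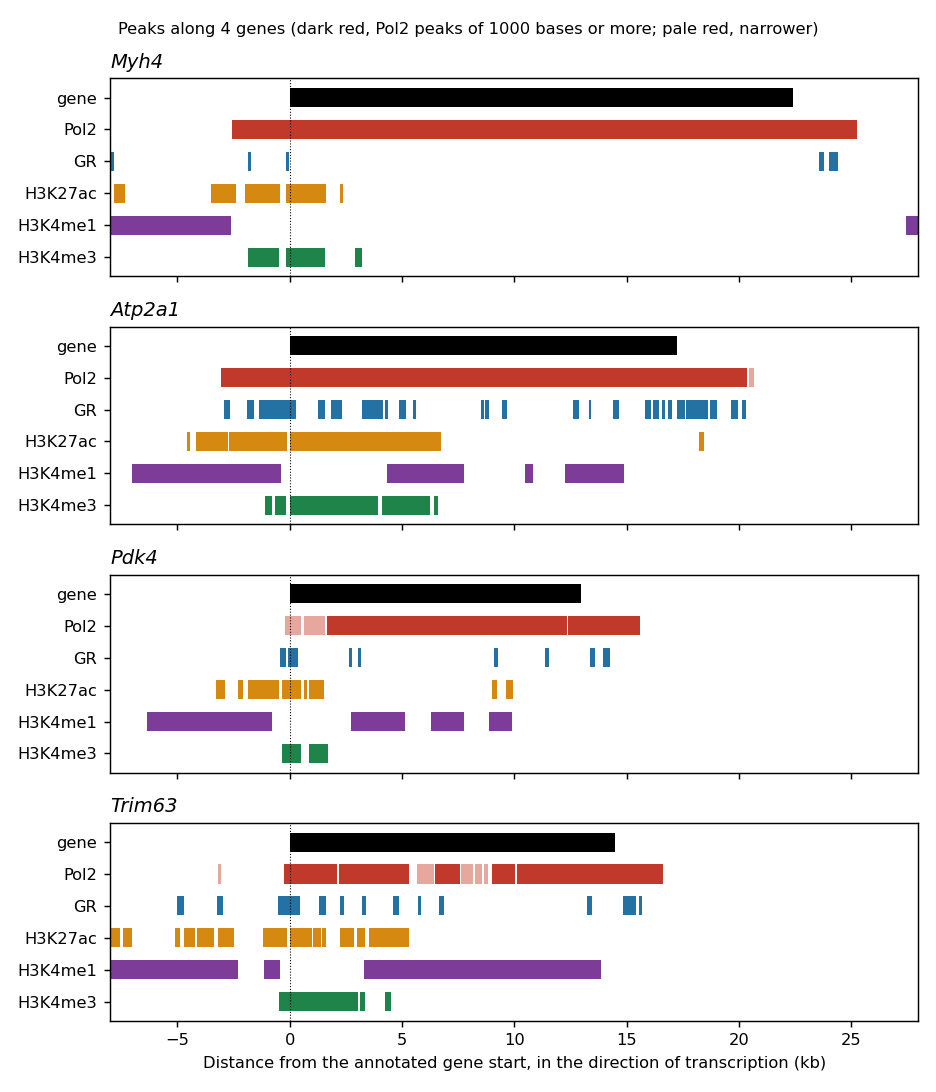
Peaks of each list (rows) along 4 genes, by distance from the annotated start in the direction of transcription (x axis, kb); black bars are the annotated genes, dark red bars wide Pol2 peaks and pale red bars narrower Pol2 peaks. Myh4 and Atp2a1 are each covered end to end by 1 Pol2 peak, while Trim63 is covered by 5 wide and several narrower ones; H3K4me3 reaches 6627 bases past the start at Atp2a1, 4517 at Trim63, 3242 at Myh4 and 1720 at Pdk4.

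The map of 4 genes shows blocks of different makeup. Over Myh4 the block held 4 GR peaks, which covered 3.12% of its bases, and it held no H3K4me1. H3K27ac covered 13.2% and H3K4me3 12.5% of it, in the first kilobases and ahead of the start. Over Atp2a1 the block held 24 GR peaks (37.5% of its bases), H3K27ac over 41.9%, H3K4me1 over 38.7% and H3K4me3 over 29.8%. At Pdk4 the wide blocks began 1644 bases into the gene, behind narrower Pol2 peaks at the start, and ran to 2624 bases past the 3′ end. The Pol2 list was read as positions without a height, so density within a block was not measured.

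In all, 284 of 21755 protein-coding genes (1.31%, exact 95% interval 1.16 to 1.47%) had at least 1 base under a wide Pol2 peak. Any Pol2 peak lay over 10168 (46.7%). The 284 genes were covered by Pol2 peaks over a median of 14.4% of their length, against 0.967% in the 9884 genes with only narrower peaks, a difference that the width rule itself shapes. Their median length was 17004 bases against 24608. Pol2 peaks covered 50% or more of 84 genes (0.386% of all), and 63 of these were among the 284. Genes fully under Pol2 included Myh4, Atp2a1, Aldoa, Txnip, Acta1, Tnni2, Ddit4, Pgam2, Gadd45g and Tcap, each under 1 wide peak, and their lengths ran from 1143 bases (Tcap, a cap protein of the sarcomere) to 22418 bases (Myh4).

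Long genes instead carried strings of separate wide peaks. At least 2 wide peaks lay over 63 genes and at least 5 over 9. By bases under wide peaks the first was Ttn, with 47801 bases in 30 wide peaks of 1014 to 3335 bases among 374 Pol2 peaks, which together covered 60.4% of its 278568 bases. Mylk4 followed with 28907 bases in 17 wide peaks of 1033 to 4004 bases. Tpm1 had 19316 bases in 7, or 72.0% of its length. Tacc2, a coiled-coil protein of the centrosome, had 17978 bases in 12. The same 12 peaks count for Fgfr2, whose GENCODE entry of 2960900 bases spans Tacc2, so that the 2 cannot be told apart by overlap. Pvalb had 15200 bases under wide peaks (99.4% of its length), Tnnt3 17069 (99.4%) and Ckm 13431 (74.3%).

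The strings differed in the marks they carried. Of the 30 wide peaks along Ttn, 26 had H3K4me1 at the centre, 3 had H3K27ac and 1 had GR, and 27 overlapped no GR peak at all. Of the 17 along Mylk4, 11 were under H3K4me1 at the centre and 15 overlapped no GR peak. The 7 along Zbtb16, a transcription factor gene induced by glucocorticoids, all had H3K27ac and H3K4me1 at the centre, and 6 overlapped GR. Of the 7 along Fbxo32, 2 overlapped GR. Peaks along 1 gene are not independent of each other, and 1 gene can therefore weigh heavily in counts of peaks.

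Wide peaks lay at starts less often and in gene bodies more often than narrower peaks. The midpoint was within 1 kb of a protein-coding start site in 167 of 446 wide peaks (37.4%, 32.9 to 42.1%) and in 66.1% (65.4 to 66.7%) of 19740 narrower ones, an odds ratio of 0.308 (0.252 to 0.375, exact p = 6.39e-34). It was in a gene body, more than 1 kb from any start, in 187 wide peaks (41.9%, 37.3 to 46.7%) and in 21.7% (21.1 to 22.3%) of narrower ones, an odds ratio of 2.61 (2.14 to 3.17, exact p = 3.75e-21). The median width was 1370 bases near starts, 1576 in bodies and 1636 elsewhere. The 187 body peaks lay in 94 genes, and 5 of these genes held 68 of them. In another count only the widest Pol2 peak of each protein-coding gene was kept, beside all peaks without such a gene. There 81 of 303 wide peaks and 545 of 13325 narrower ones had their midpoint in a gene body (odds ratio 8.55, exact p = 3.63e-40). Keeping the widest peak selects on width, which the rule also uses, so this value cannot show whether clustering within genes matters. The midpoint of a long block that begins at a start moves into the body as its width grows. By the cover of a start itself the groups were closer, with 181 wide peaks (40.6%) and 43.1% of narrower ones over a protein-coding start.

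Some wide peaks ran over the 3′ end of a gene and beyond it, and a wider peak also has more chance to reach such a position. The 3′ end of its own gene was covered by 57 wide peaks (12.8%) and by 54 narrower ones (0.274%). These 57 ran a median of 1652 bases past the end, 42 of them more than 1 kb, and 11 covered both the start and the 3′ end. The longest run was 4807 bases, past Pvalb. At Aldoa the peak ran 3371 bases past the end, at Atp2a1 3127 and at Tnni2 3101. Of the 284 genes, 92.6% had at least 1 annotated start and 34.9% their 3′ end under some Pol2 peak. A gene can have several starts and was given 1 3′ end, so these shares are unlike measures. In the 9884 genes with narrower peaks only, the shares were 84.1% and 0.860%. At 600 bases past the 3′ end Pol2 lay over 41.5% of the 284 genes and at 3000 bases over 15.5%, against 1.49% and 1.55% of the others.

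Beyond starts and bodies, 92 wide peaks (20.6%) had their midpoint outside protein-coding genes, against 12.2% of narrower ones. Of these, 58 lay within 10 kb past a protein-coding 3′ end, 19 lay in a noncoding gene or pseudogene, with 6 in both of these classes, and 21 lay in neither. The count of 58 includes 1 Neat1 peak, which lies past Frmd8, and the peak over Pgam2, the muscle phosphoglycerate mutase, whose midpoint is just past that gene. A wide peak of 3180 bases ran over the 3′ end of Pdk4, with its centre 1034 bases past it. Another of 4004 bases ran over the 3′ end of Mylk4, with its centre 63 bases past it. No gene of any kind lay under 32 of the 92, the widest of which was 3455 bases (chr15:81834676-81838130). Its centre was 9539 bases past the 3′ end of Tef, a clock output factor. The next, of 2883 bases, had its centre 4535 bases past Zbtb16. Another of 2558 bases had its centre 1861 bases past Mylk2, the skeletal myosin light chain kinase, so the edges of these peaks lay nearer. Whether such peaks belong to transcription of the neighbouring gene was not tested.

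**Figure D3:**
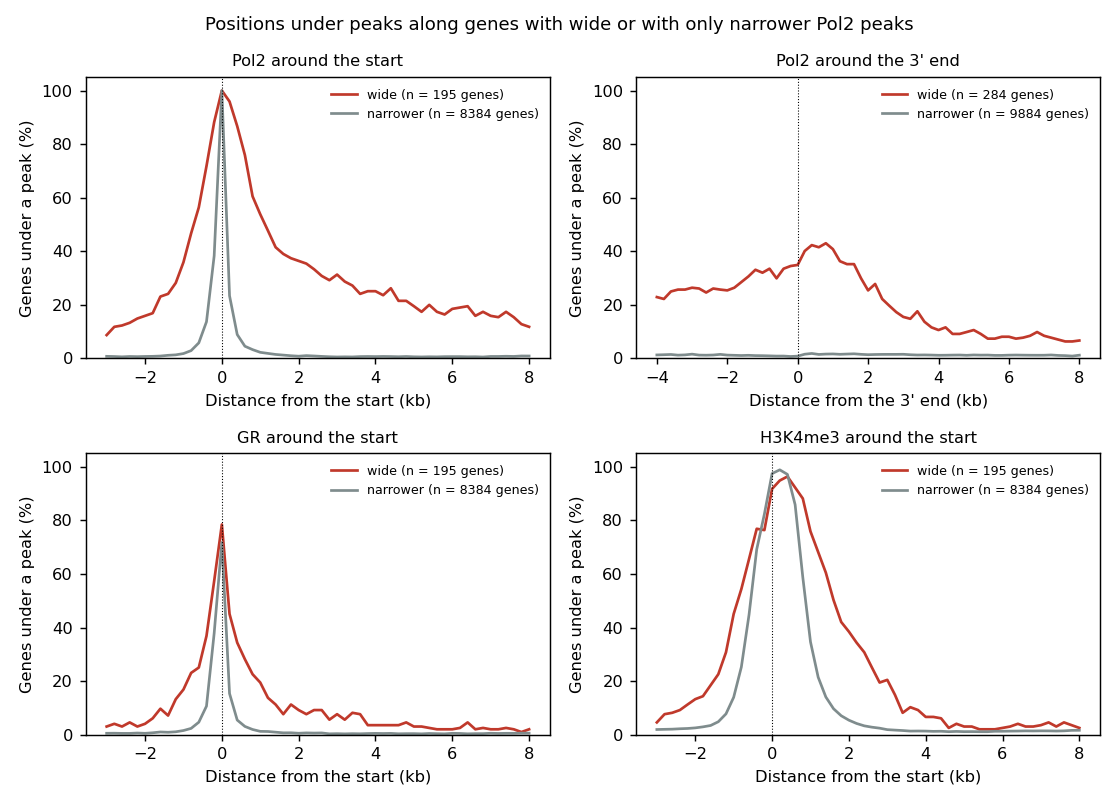
Share of genes (y axis, %) with a peak over each position, by distance from the start or the 3′ end (x axis, kb, steps of 200 bases), for a group with wide Pol2 peaks (red) and a group with narrower ones (grey). Near starts the groups are 195 genes with a wide peak over the start and 8384 with only a narrower one there. Some of these 8384, such as Pdk4 and Zbtb16, hold a wide peak elsewhere. At 3′ ends the groups are 284 genes with any wide peak and 9884 with narrower ones only. At 600 bases past the 3′ end Pol2 lies over 41.5% of the red and 1.49% of the grey group.

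The reach of peaks at starts is given as a description, since the width rule fixes that wide peaks are longer. Among peaks over the start of exactly 1 protein-coding gene, wide peaks had a median of 879 bases downstream and 563 upstream, and narrower ones had 143 and 101. More bases lay downstream than upstream in 108 of 165 wide peaks (65.5%, 57.7 to 72.7%) and in 5066 of 8034 narrower ones (63.1%, 62.0 to 64.1%), an odds ratio of 1.11 (0.795 to 1.56, exact p = 0.569). Measured from the 5′ end of the gene instead of the nearest transcript start, 96 of 118 wide and 3910 of 5516 narrower peaks leaned downstream (odds ratio 1.79, exact p = 0.0134). In the first count and the medians the start was the annotated transcript start nearest to the peak midpoint. That choice draws the sides of a peak towards balance where it covers several starts. The odds ratio of 1.11 therefore cannot show whether wide and narrower peaks lean alike, and the call depended on the start chosen.

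At 600 bases into the gene, Pol2 lay over 75.9% of the 195 genes with a wide peak at the start and over 4.56% of the 8384 others, and at 6000 bases over 18.5% and 0.680%. The profiles of other lists were not used by the rule. At 600 bases GR lay over 28.2% and 3.12%, and H3K4me3 over 92.3% and 85.9%. At 1800 bases H3K4me3 lay over 42.1% and 7.11%. H3K4me1, which is low at active starts, lay over 17.9% of the starts with a wide peak and over 44.6% of the others, and at 3600 bases over 77.9% and 34.7%. The H3K4me3 peak at the start was thus longer in the genes with wide Pol2 peaks. Its median width was 2445 bases in 215 genes with a wide Pol2 peak within 1 kb of the start and 1425 bases in 9954 with a narrower one (difference 1020, permutation p = 1.00e-05, the smallest possible). Its fold over control, the authors' deposited value, had a median of 36.4 (quartiles 25.4 and 48.2) and 38.5 (28.9 and 48.2), a difference of -2.11 with permutation p = 0.0842. With wide set at 1500 bases the difference in fold was -4.83 and passed (permutation p = 0.00587).

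Marks were compared at the central 200 bases of each Pol2 peak, a window of the same length in both groups that reaches past the ends of the narrowest peaks. Over all peaks each of the 5 lists was less frequent at the centres of wide peaks, and for GR and H3K4me3 the difference did not pass the test among peaks of like position. GR lay at 206 of 446 wide centres (46.2%, 41.5 to 50.9%) and at 60.9% of narrower ones, an odds ratio of 0.550 (0.454 to 0.667, exact p = 8.72e-10 after Benjamini-Hochberg adjustment over the 5 lists). H3K27ac lay at 70.6% and 86.1% (odds ratio 0.387, 0.313 to 0.480, adjusted exact p = 1.47e-16). H3K4me3 lay at 55.4% and 75.2% (0.409, 0.337 to 0.497, adjusted exact p = 1.32e-18). H3K4me1 differed less, with 48.9% and 56.3% (0.743, 0.613 to 0.900, adjusted exact p = 0.00199), and its direction turned against Pol2 peaks of 500 bases up to the limit (1.38, adjusted exact p = 0.00334). CTCF lay at 6 wide centres (1.35%, 0.495 to 2.91%) and at 4.71% of narrower ones (0.276, 0.101 to 0.608, adjusted exact p = 0.000278).

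**Figure D4:**
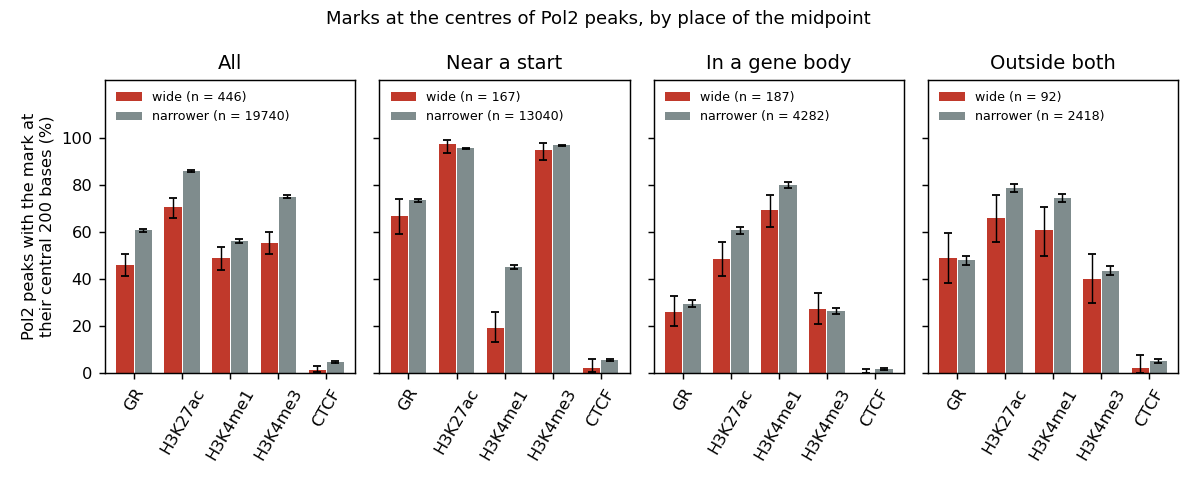
Share of Pol2 peaks (y axis, %) whose central 200 bases overlap a peak of each other list (x axis), for wide (red) and narrower (grey) peaks, in all places and by the place of the midpoint; bars start at 0 and lines are exact 95% intervals of counting error. Near starts H3K4me1 is the mark whose intervals lie furthest apart, at 19.2% of wide and 45.1% of narrower peaks.

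Near starts, H3K4me1 was the list that passed the test. It lay at the centre of 32 of 167 wide peaks (19.2%) and of 45.1% of narrower ones (odds ratio 0.289, adjusted exact p = 1.67e-11). H3K27ac lay at 97.6% and 95.8% there (odds ratio 1.79, adjusted exact p = 0.329), and H3K4me3 at 95.2% and 97.0% (0.608, adjusted exact p = 0.208). GR lay at 67.1% and 73.6% (0.731, adjusted exact p = 0.144) and CTCF at 2.40% and 5.62% (0.412, adjusted exact p = 0.144). More than 1 kb from every start, H3K27ac (odds ratio 0.580, adjusted exact p = 4.62e-05), H3K4me1 (0.561, adjusted exact p = 4.62e-05) and CTCF (0.240, adjusted exact p = 0.0420) were less frequent at wide centres. There the odds ratios for GR (0.893, adjusted exact p = 0.511) and H3K4me3 (0.946, adjusted exact p = 0.696) did not pass. These tests count each peak as independent, although a few genes held many of the wide ones. H3K27ac lay at the centre of 3 of 30 wide peaks along Ttn, 4 of 17 along Mylk4 and 3 of 12 along Tacc2. H3K4me1 lay at 26, 11 and 12 of them, and most of these peaks were more than 1 kb from a start. How far such genes carry the differences was not tested.

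In gene bodies themselves, wide centres carried H3K4me1 at 69.5%, H3K27ac at 48.7%, H3K4me3 at 27.3% and GR at 26.2%, and CTCF at 0 of 187 (exact upper limit 1.95%). Narrower body peaks carried them at 80.1%, 61.0%, 26.6% and 29.6%, and CTCF at 1.70%. Counted over the whole peak, where a wide peak has more bases to overlap, GR touched 326 wide peaks (73.1%) and 61.0% of narrower ones, so the direction for GR turns with that definition, as it does for H3K4me1 and CTCF. Per kilobase of Pol2 peak the GR midpoints numbered 0.752 in wide and 1.65 in narrower peaks.

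Some wide peaks carried many GR peaks and some none. At least 2 GR peaks lay in 207 wide peaks and at least 5 in 19. The most lay at Atp2a1 (24), Mir1a-1hg (21), Nctc1 (15), the wider Neat1 block (15) and Txnip (11). GR covered 57.7% of the bases of the Mir1a-1hg block and 65.3% of the Txnip block. Of the 57 GR peaks that were themselves 1000 bases or wider, 24 overlapped a wide Pol2 peak. Of all 23187 GR peaks, 729 had their midpoint in one. A wider GR peak also has more bases to overlap, and the part of width was not tested. The widest Pol2 peaks without GR lay in Tpm1 (4483 bases), Sgk1 (4428), Myl1 (3687) and Ldb3 (3316) and over the 3′ end of Mylk4 (4004). Sgk1 is a kinase gene induced by glucocorticoids, Myl1 a fast myosin light chain and Ldb3 a Z-disc protein.

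None of the 3 histone marks overlapped 20 wide peaks (4.48%), against 3.04% of narrower ones. The direction differed by place: near starts it was 0.599% against 0.383%, in gene bodies 5.88% against 8.27% and elsewhere 8.70% against 8.15%, and no test was made. The widest of the 20 lay in Mib1 (3809 bases, also overlapping the microRNA host Mir133a-1hg), over the 3′ end of Pdk4 (3180) and at the end of Ucp3 (2642). Ucp3 encodes a mitochondrial carrier of muscle. Another of 2474 bases covered the end of Mybpc2, the fast myosin-binding protein C, and Fam71e1. CTCF lay at the centre of 6, the widest at Spsb2 and Tpi1 (1862 bases), Pfkfb3 (1512) and Gpd1 with Cox14 (1468). Tpi1, Pfkfb3 and Gpd1 encode enzymes that act in or beside glycolysis, but only 116 bases of Tpi1 (3.13%) lay under the wide peak. The next widest, of 1375 and 1109 bases, overlapped no GENCODE gene.

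Gene groups differed widely in how many members had a wide peak, counted from 1 base of overlap and set beside 1.31% of all protein-coding genes. Contractile genes of fast or all fibres came first, with 19 of 28 (67.9%, 47.6 to 84.1%), and their median cover by Pol2 was 45.1%, against 0 for all protein-coding genes. Besides Ttn, Myh4 and Tpm1, the list holds fast myosins chosen for mention after their values were seen: Myh1 had 31 Pol2 peaks over 33.1% of its length and none was wide, and Myh2 had 1 Pol2 peak. Of 12 slow-fibre sarcomere genes 0 had a wide peak (exact upper limit 26.5%) and 4 had any Pol2 peak. A share of 0 in a list this short lies near the 1.31% of all genes and shows nothing about the list. Actn2, 1 of those 4, is also counted in the fast or common list. That list also holds Mybpc1, the slow-type myosin-binding protein C, named after its values were seen. Fast fibres make up most of many mouse limb muscles, and which muscles were used is not stated in the labels.

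Glycolysis and phosphocreatine came next, with 15 of 24 genes (62.5%, 40.6 to 81.2%). Ckm led, Pygm, the muscle glycogen phosphorylase, had 7899 bases in 4 wide peaks, and Aldoa was covered whole. Oxidative metabolism had 6 of 30 (20%, 7.71 to 38.6%) although all 30 had a Pol2 peak. Its leading member, Ucp3, had 7889 bases in 5 wide peaks, followed by Slc25a4, the mitochondrial ADP/ATP carrier, with 2063 and Ogdh, a Krebs cycle enzyme, with 911. The 6 include Mb with 140 bases (0.398% of its length) and Fabp3 with 32 (0.466%), named after their values were seen. Calcium handling had 6 of 20 (30.0%, 11.9 to 54.3%), led by Atp2a1 and Pvalb. The calcium release channel Ryr1 had 1678 bases in 1 wide peak. Of 19 muscle transcription factors and cofactors 1 had a wide peak (5.26%), while 16 had any Pol2 peak.

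Genes known as GR targets had wide peaks in 14 of 30 cases (46.7%, 28.3 to 65.7%), and all 30 had a Pol2 peak. Trim63 had 11693 bases under 5 wide peaks, Pdk4 11248 under 2 and Zbtb16 11107 under 7. Clock genes had 6 of 19 (31.6%, 12.6 to 56.6%), led by the repressor Nr1d1 (5338 bases in 4 wide peaks), with the output factor Dbp (2920) and the period gene Per1 (2822) after it. Per1 is also counted among the GR targets. Immediate early genes had 4 of 24 (16.7%), led by Nr4a1 (3911 bases in 3 wide peaks), Jun (2453) and the RNA-decay factor Zfp36 (1721). Heat shock genes had 3 of 22 (13.6%), the small heat shock proteins Hspb7 (3538 bases), Hspb6 (1549) and Hspb8 (1079).

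Among genes of translation and housekeeping 5 of 24 (20.8%) had a wide peak, among them Actb, the cytoplasmic actin (1599 bases), and Eef1a2, the muscle form of an elongation factor (1297). The ubiquitin, proteasome and autophagy list had 3 of 20 (15%): Usp2, a deubiquitinase (2381), Ube2b, a conjugating enzyme (1211), and the muscle F-box protein Fbxo40 (1065). Of 15 replication-dependent histone genes 0 had a wide peak (exact upper limit 21.8%) and 13 had any Pol2 peak, beside 1.31% and 46.7% of all protein-coding genes. The 0 for wide peaks lies near that share and shows nothing about the list. The noncoding list had 6 of 19 (31.6%), led by Neat1 (20700 bases), Mir1a-1hg (16199) and Nctc1 (13988). Of 2196 annotated microRNA genes 79 lay under any Pol2 peak and 11 under wide peaks, among these 11 Mir1a-1, Mir1a-2, Mir133a-1 and Mir133a-2. The share of microRNA genes was not compared with that of other genes.

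Muscle holds other cells, so markers of endothelial, fibro-adipogenic, satellite, immune, fat and Schwann cells were counted, with liver and neuron as unrelated tissues. Of these 94 genes in 8 lists 0 had a wide Pol2 peak, and 28 had any Pol2 peak, beside 1.31% and 46.7% of all protein-coding genes. The count of 0 lies near that background and is no result about these cells. Each list alone has an upper limit between 23.2% and 30.8%. Fewer cells of a type and less polymerase per cell cannot be told apart in a whole tissue. Of the 284 genes with a wide peak, 202 were in none of the lists.

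**Figure D5:**
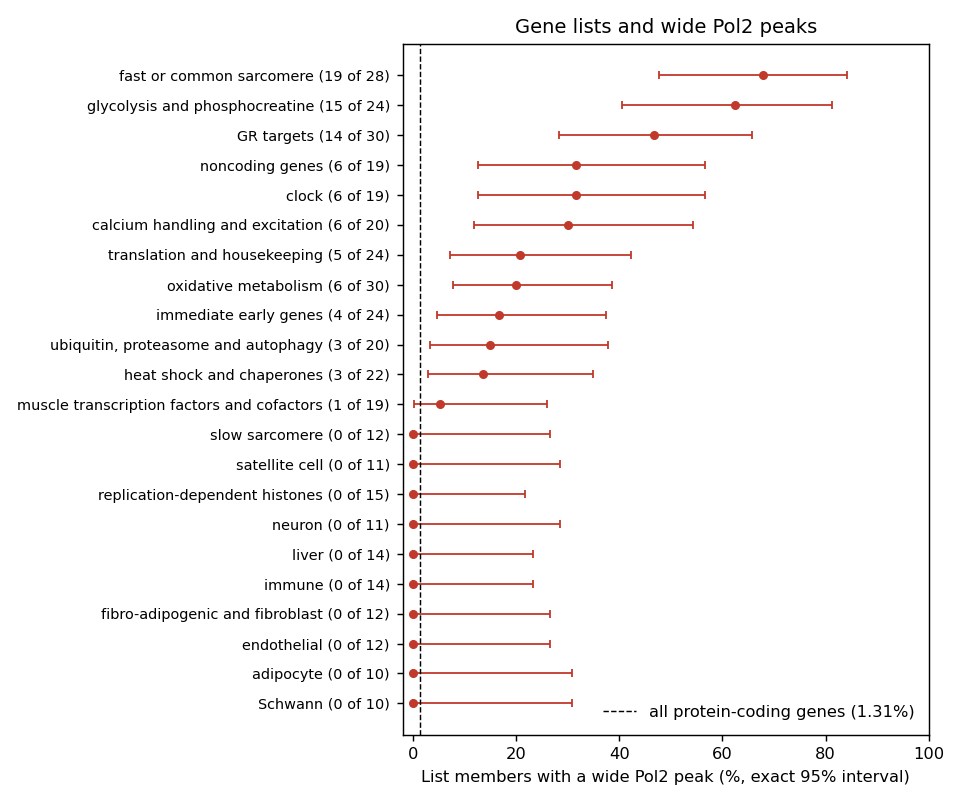
Share of members with a wide Pol2 peak (x axis, %) in each of 22 gene lists (rows, with counts); points are shares, lines exact 95% intervals of counting error, and the dashed line is the 1.31% of all protein-coding genes. Fast or common sarcomere genes are at 67.9% and the slow sarcomere, histone and 8 other-cell or other-tissue lists at 0.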

How the data were processed

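The authors deposited peak positions (start and end) for 6 antibodies and, for H3K4me3, the fold of each peak over its control as a linear ratio, identified from the values since the file has no header. Build mm10 and the tools MACS2, Bowtie 1.0.0 and bcl2fastq 2.17.1.14 are listed in the submitters' processing notes, with no role, order or threshold. Per the labels' protocols, each library took 10 ng of purified DNA and 7 cycles of PCR. Depth is unknown, so intervals cover counting error of peaks or genes only.

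The Pol2 list held 20193 peaks, and 7 on other chromosomes were left out, of which 0 were wide. Genes came from GENCODE M21 on GRCm38 (21755 protein-coding), promoters from RefSeq on the same build. A peak was assigned to the protein-coding gene with most shared bases, passing over 2 entries longer than 2500 kb (Fgfr2 and Gm20388) that span many genes. Of 397 list entries 1 was unmatched and 1 matched by an older symbol. Shares carry exact Clopper-Pearson 95% intervals, odds ratios exact intervals and exact p values from two-sided Fisher tests, and medians 100000 permutations (Python 3.11.15, numpy 2.4.6, scipy 1.17.1). An adjusted p under 0.05 passed. The steps were tested on simulated data.

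The members, lists and tests were chosen with earlier results of these data known. Named are the 15 widest peaks, the 10 genes with most bases under wide peaks, up to 3 leading members of each list, and the 5 widest peaks without a gene, without histone marks, without GR or with CTCF at the centre. Peaks on chromosome 18 are counted, and some are not named. Some genes that the rule names are not reported here.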

Additional observations from a re-analysis of the deposited data

How the results depend on the processing

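Of 97 alternative values for the tests and counts above, 76 kept their direction and their side of the threshold, or for counts stayed within 1.5 times. With any overlap over the whole peak, the odds ratios turned to 1.74 for GR, 1.76 for H3K4me1 and 1.42 for CTCF (adjusted exact p = 0.0627). A longer peak has more bases to overlap, and the part this plays was not tested. H3K27ac (78.0% and 86.2%) and H3K4me3 (63.0% and 75.3%) stayed less frequent in wide than in narrower peaks by that count. Against Pol2 peaks of 500 bases up to the limit, H3K4me1 turned to 1.38 (adjusted exact p = 0.00334). Near starts H3K27ac turned to 1.79 and GR (0.731), H3K4me3 (0.608) and CTCF (0.412) no longer passed. Far from starts GR (0.893) and H3K4me3 (0.946) no longer passed. With wide set at 1500 or 2000 bases, leaving the peaks between out of both groups, H3K4me1 was 0.821 (adjusted exact p = 0.168) and 0.730 (adjusted exact p = 0.0764).

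The lean of peaks downstream of the start passed with the 5′ end of the gene (1.79), at 2000 bases (2.47), against peaks of 500 bases up to the limit (1.76) and after stitching (1.40), and the cause was not tested. The H3K4me3 fold differed at 1500 bases (-4.83, permutation p = 0.00587), and the width of the H3K4me3 peak in its place gave 1020 bases, in the other direction. Genes under wide peaks numbered 151 at 1500 bases, 97 at 2000 and 983 after stitching, against 284. The share of midpoints near a start gave an odds ratio of 0.148 at 2000 bases and 0.511 after stitching. For TATAAA the odds ratio was 8.57 at 1500 bases and 2.83 with RefSeq starts. The CpG ratio differed by -0.213 at 1500 bases. The alternatives with long entries left out, RefSeq starts, 1 peak per gene for the place of midpoints, and the lists were chosen after seeing the data. The 8 lists of other cells and tissues stayed at 0 under each alternative tried for the gene count. No paired analysis was possible because each antibody has 1 library. Leaving out a replicate was not possible for the same reason.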
